A study of Mus musculus with 189 samples.

Results

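Cma1, Mcpt1, Mcpt9, Mcpt2, Mcpt4 and Ctsg are serine protease genes of the chymase locus on mouse chromosome 14. They were picked by gene symbol, with no threshold on their values but with earlier results of these data known. They made up 6 of the 46078 gene rows of the count table. The single cells were peritoneal cells of 4 female C57BL/6 mice, and no label ties a cell to a mouse or gives an age. Both groups were sorted live as lineage-negative cells with c-Kit, the stem cell factor receptor, and FcεRI, the IgE receptor, on their surface. Mature mast cells (94 cells) were gated as integrin β7 low with high side scatter, and basophil-mast cell progenitors (BMCPs, 95 cells) as integrin β7 high with low side scatter. With no cell tied to a mouse, each group counted as 1 pooled sample. Differences between the groups had no replicate check, no p-values were computed, and intervals cover the counting error of reads or cells only. PCR copies were counted as separate reads, and the intervals of CPM cover neither amplification nor the spread over cells.

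Chymases are chymotrypsin-like proteases that mast cells store in secretory granules, bound to the heparin chains of the proteoglycan serglycin, and release on activation. In the mouse, Cma1 (mast cell protease 5, whose mouse enzyme cuts like an elastase) and Mcpt4 are products of connective tissue mast cells such as those of the peritoneum and skin. Mcpt1 and Mcpt2 are known as products of mucosal mast cells. Ctsg encodes cathepsin G, best known from the granules of neutrophils and their precursors. Mcpt9 is a less studied relative of the Mcpt genes.

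From Cma1 to the end of Ctsg the locus spanned 161 kb of the mm10 (GRCm38) build, in the order Cma1, Mcpt1, Mcpt9, Mcpt2, Mcpt4, Ctsg. Cma1 (ENSMUSG00000022225, chr14:55941451-55944675), Mcpt9 (ENSMUSG00000071361, chr14:56026864-56030495), Mcpt4 (ENSMUSG00000061068, chr14:56059629-56062313) and Ctsg (ENSMUSG00000040314, chr14:56099881-56102574) lie on the minus strand. Mcpt1 (ENSMUSG00000022227, chr14:56017971-56020384) and Mcpt2 (ENSMUSG00000022226, chr14:56042041-56044642) lie on the plus strand. Each member is annotated as protein coding with up to 5 exons in a transcript. Other protease genes sit among and beyond them: Cma2 next to Cma1, Mcpt8 between Mcpt4 and Ctsg, and a row of granzyme genes that ends at Gzmb.

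The sequences upstream of the start sites are shown for the 3 members with the most reads, and for Mcpt1, whose upstream sequence is a near copy of that of Mcpt4. A RefSeq promoter sequence (GRCm38.p6) was found for 5 of the 6 members, all but Mcpt2. The 250 bases before each start are printed 5′ to 3′ on the gene's strand: chr14:56062311-56062560 (minus) for Mcpt4, chr14:56017714-56017963 (plus) for Mcpt1, chr14:55944676-55944925 (minus) for Cma1 and chr14:56102575-56102824 (minus) for Ctsg. Capitals mark matches, on either strand, to TATAAA, to GATAAG or to TGTGGT. The first is a core promoter element, and the others are motifs of GATA and of RUNX transcription factors.
Mcpt4: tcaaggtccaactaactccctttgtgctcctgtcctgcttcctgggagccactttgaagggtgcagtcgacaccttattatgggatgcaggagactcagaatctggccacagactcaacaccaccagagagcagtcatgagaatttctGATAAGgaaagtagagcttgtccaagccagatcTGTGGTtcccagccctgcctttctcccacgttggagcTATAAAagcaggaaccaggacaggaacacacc
Mcpt1: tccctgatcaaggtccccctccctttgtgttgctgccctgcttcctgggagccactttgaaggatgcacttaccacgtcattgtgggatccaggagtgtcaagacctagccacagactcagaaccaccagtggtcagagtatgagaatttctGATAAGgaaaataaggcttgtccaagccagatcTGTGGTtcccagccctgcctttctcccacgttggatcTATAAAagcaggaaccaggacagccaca
Cma1: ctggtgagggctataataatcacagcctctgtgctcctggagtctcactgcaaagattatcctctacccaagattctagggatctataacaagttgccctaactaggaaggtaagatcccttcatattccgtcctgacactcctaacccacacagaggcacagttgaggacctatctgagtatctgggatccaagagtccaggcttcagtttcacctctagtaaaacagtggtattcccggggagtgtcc
Ctsg: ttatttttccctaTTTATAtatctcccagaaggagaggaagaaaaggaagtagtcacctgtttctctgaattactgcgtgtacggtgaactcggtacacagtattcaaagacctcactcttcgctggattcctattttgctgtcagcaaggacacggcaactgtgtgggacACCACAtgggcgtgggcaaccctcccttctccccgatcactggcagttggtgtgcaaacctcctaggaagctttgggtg

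The Mcpt4 and Mcpt1 sequences were identical at 81% of 258 aligned columns and shared an unbroken identical run of 53 bases. The other pairs of members were identical at 41.9% to 49.3% of columns. Mcpt4 and Mcpt1 carried the same 3 motifs in the same order, with TATAAA at 32 to 27 bases before the start of Mcpt4 and at 28 to 23 bases before that of Mcpt1. GATAAG lay at 102 to 97 bases in Mcpt4 and 98 to 93 in Mcpt1, and TGTGGT at 69 to 64 and 65 to 60. Ctsg had TATAAA and TGTGGT on the opposite strand, and Cma1 and Mcpt9 had no match in these 250 bases. None of the 5 sequences found held CACGTG, the E-box bound by MITF-type factors. Of 32851 RefSeq promoters cut to the same length, 12.4% held TATAAA, 6.55% GATAAG, 14% TGTGGT and 6.02% CACGTG. These motifs do not overlap each other, and a match is a run of letters, not a measured binding site.

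Cma1 held most of the members' reads in both groups, and Mcpt4 came next. Levels are given as CPM, a gene's reads scaled to 1000000 reads on all genes. Pooled over 94 mature mast cells and the 93 BMCPs kept, Cma1 stood at 93353 CPM (95% exact Poisson interval 93298 to 93408) and 56528 CPM (56486 to 56571). It ranked 1 among all genes in both groups. Mcpt4 stood at 23090 CPM (23063 to 23117) in mature mast cells, rank 4, and at 5857 CPM (5843 to 5870) in BMCPs, rank 7. Ctsg went the other way, since mature mast cells had 414.0 CPM of it and BMCPs 1218 CPM. Mcpt2 was low, at 7.14 and 19.3 CPM. Mcpt1 had 3.92 and 1.77 CPM, and Mcpt9 had 2.90 and 1.26 CPM.

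On the log2 ratio of CPM + 1, mature over BMCP, Mcpt4 was at 1.98, Cma1 at 0.72, Mcpt2 at −1.32 and Ctsg at −1.55. Mcpt1 and Mcpt9 were under the minimum of 5 CPM in either group, so 4 of the 6 members entered the count of ratios. Mcpt4 was at least 2-fold higher in mature mast cells, as were 9.9% of the 10556 genes tested. Ctsg and Mcpt2 were at least 2-fold higher in BMCPs, as were 19.2% of the genes tested. The median log2 ratio of all genes tested was −0.25, and each ratio is relative to the read total of its group. Scaling sets where 0 lies. With TMM factors (edgeR's trimmed mean of M-values) the median of all genes was −0.01, and with totals scaled to the ERCC spike-in RNA it was 0.63. Mcpt4 was then at 2.23 and 2.89, Cma1 at 0.97 and 1.64, and Ctsg at −1.31 and −0.64. Under the spike-in scaling Mcpt4 and Cma1 were at least 2-fold higher in mature mast cells, as were 30.8% of the genes tested. No member was then 2-fold higher in BMCPs, beside 8.46% of the genes tested. Genes higher in mature mast cells made up 34% of all calls with read totals, 47% with TMM and 78.5% with the spike-in RNA.

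**Figure D1:**
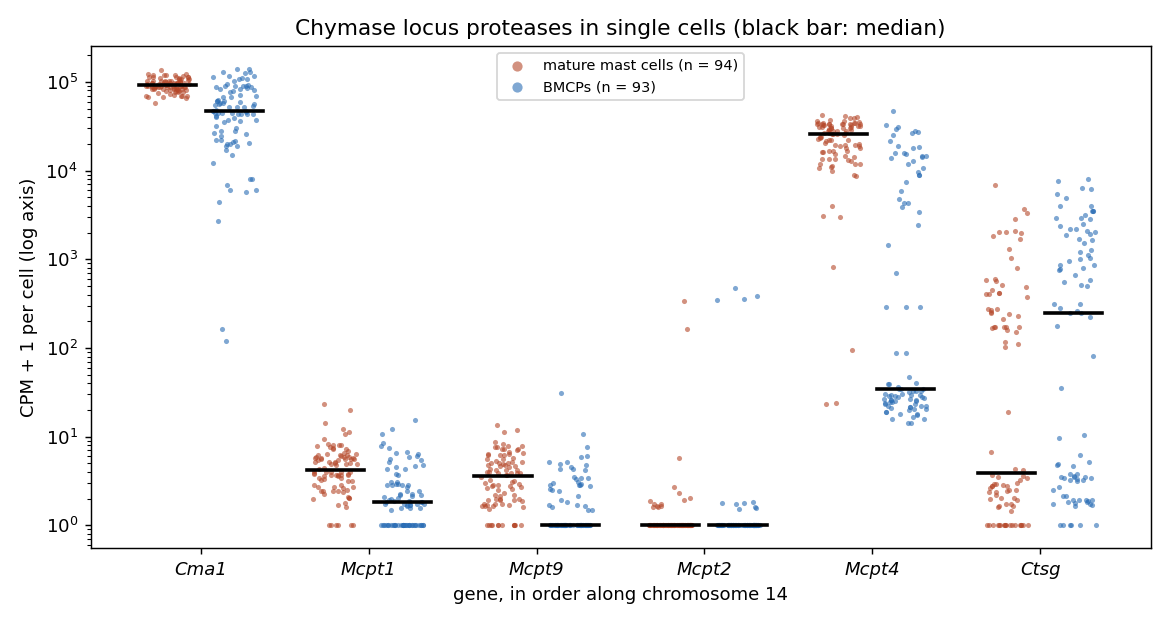
Each point is 1 cell, with CPM + 1 on a logarithmic axis for the 6 members in 94 mature mast cells and 93 BMCPs, and black bars mark medians. Mcpt4 and Ctsg form a high and a low band in BMCPs, Cma1 spans a narrow range in mature mast cells (57206 to 137697 CPM), and Mcpt2 is high in 6 cells.

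The 6 members together took 11.7% of the gene reads of mature mast cells against 6.36% of those of BMCPs, which differ by 5.32 percentage points. Single mature mast cells ranged from 8.11% to 16% with a median of 11.7%, and single BMCPs from 0.0137% to 16.9% with a median of 5.27%. Without BMCPs 46 and 80, which carried B cell markers, the BMCPs began at 0.303% and had a median of 5.30%. Within these reads, the share of Cma1 was 79.9% for mature mast cells against 88.8% for BMCPs. Mcpt4 made up 19.8% and 9.20%, and Ctsg 0.354% and 1.91%. Per kb of exon, Cma1 (85645 CPM per kb) was 4.11-fold above Mcpt4 (20839) in mature mast cells and 9.81-fold above it in BMCPs (51861 against 5286). The per-kb level of Mcpt4 was 52-fold above that of Ctsg (400.7) in mature mast cells and 4.48-fold above it in BMCPs (1179). In BMCPs, Ctsg lay below the neighbours Mcpt8 (3300 CPM per kb) and Gzmb (3282).

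A few facts of the whole table bear on these values. Mature mast cells had 561600 to 2152221 gene reads each, and the 93 kept BMCPs had 344022 to 2091665; BMCPs 6 and 93 had under 100000 and were left out. Summed levels of 7 mast cell markers were 56043 to 245562 CPM in mature mast cells and at least 1000 CPM in 91 of 93 BMCPs. The other BMCPs, numbers 46 and 80, had 229.9 and 312.6 CPM of mast cell markers beside 17948 and 27454 CPM of B cell markers, so they went against their label. Results they could set are also given without them. A further 4 mature mast cells and 5 BMCPs had 1015 to 1567 CPM of B cell markers. Another 2 BMCPs had 1411 and 2029 CPM of macrophage or monocyte markers. Over all kept BMCPs, Ccr2 alone held 6587 of the 6885 reads of that list, and 4 of its 6 genes had 0 reads. BMCP 18, the cell with the most Mcpt4, and BMCP 38, among the lowest in Cma1, were among these further cells. Without all 13 such cells the log2 ratios were 0.64 for Cma1, 1.95 for Mcpt4 and −1.60 for Ctsg, and Mcpt4 was on at 1000 CPM in 95.6% of mature mast cells and 39.3% of BMCPs. Neutrophil markers were nearly absent, with 6 of 8 at 0 reads in each group.

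Cma1 was abundant in every mature mast cell, with a lowest value of 57206, a median of 91147 and a highest of 137697 CPM. The coefficient of variation over these cells was 16%. In BMCPs the lowest was 119.6, the median 46716 and the highest 140476 CPM, with a coefficient of variation of 65.7% (63.3% without BMCPs 46 and 80). The groups overlapped, since the highest BMCPs reached the top of the mature range. Cma1 was at or above 1000 CPM in 94 of 94 mature mast cells and in 91 of 93 BMCPs. The 2 BMCPs below 1000 CPM were numbers 46 and 80, at 119.6 and 163.9 CPM. Without them the lowest BMCP, number 92, was at 2700 CPM and the log2 ratio of the pooled levels was 0.69. Leaving them out put the share of BMCPs with Mcpt4 at 1000 CPM or more at 37.4%, and that with Ctsg at 100 CPM or more at 54.9%. After those 2, the 8 lowest BMCPs for Cma1 had 2700 to 8060 CPM. The 7 of these other than number 40 also had Mcpt8, a basophil protease, at 453.6 to 24448 CPM and Gzmb, granzyme B, at 4785 to 21004 CPM.

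Mcpt4 was close to all or none in BMCPs. Mature mast cells had a lowest value of 22.4, a median of 25503 and a highest of 42234 CPM. BMCPs had a lowest of 13.2, a median of 33.4 and a highest of 46355 CPM, so the groups overlapped over nearly their whole ranges. At a threshold of 1000 CPM, 90 of 94 mature mast cells were on (95.7%, exact Clopper-Pearson 95% interval 89.5% to 98.8%) against 34 of 93 BMCPs (36.6%, 26.8% to 47.2%). At 100 CPM the counts were 91 and 38, and after each cell was thinned to 100000 reads they were 92 and 40. Cells between 100 and 1000 CPM were few, 1 mature mast cell and 4 BMCPs. Among cells at or above 1000 CPM, the median was 25841 CPM for mature mast cells against 14386 CPM for BMCPs.

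Below the threshold the 59 remaining BMCPs had a median of 25.6 CPM and every one had at least 1 read of Mcpt4. That median is 0.177% of the pooled level of Mcpt4 over all kept cells (14448 CPM). For Mcpt4 in the 4 mature mast cells under 1000 CPM the fraction was 0.404%. Other locus genes also had low bands, given here as the median's fraction of their own pooled level. It was 0.139% for Gzmb in the 94 mature mast cells and 0.160% for Mcpt8 in the 88 mature mast cells under 100 CPM. Mcpt8 in the 54 BMCPs under 100 CPM had 0.251%, and Cma1 in BMCPs 46 and 80 had 0.189%. Gzmb in the 33 BMCPs under 100 CPM had 0.205%. The median of Mcpt2 in cells under 100 CPM was 0, but its pooled level was only 13.3 CPM. A fraction like those of the other genes would be under 1 read per cell, so this 0 cannot be compared with them. Ctsg in cells under 100 CPM had 0.119% in mature mast cells and 0.205% in BMCPs. Reads at this level were not counted as on. Whether they came from the cell itself, from other wells of the pooled libraries or, for Mcpt4, from the similar gene Cma2 was not tested.

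Only 4 mature mast cells were under 1000 CPM of Mcpt4, numbers 92 (22.4 CPM), 41 (23.1), 54 (93.7) and 23 (824). All 4 kept high Cma1, at 101681 to 123713 CPM with a median of 116907, against a median of 90285 CPM in the other 90. Their Cpa3, carboxypeptidase A3, had a median of 74381 CPM, against 69412 CPM in the other 90. Numbers 92 and 41 were also on for Ctsg, at 231.2 and 248.5 CPM. The 4 cells had 1100264 to 1472248 gene reads, inside the range of the rest.

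The BMCPs with Mcpt4 on had more Cma1. The 34 on cells had a lowest of 26509, a median of 82486 and a highest of 140476 CPM of Cma1. The 59 off cells had a lowest of 119.6, a median of 35975 and a highest of 139601 CPM. Without BMCPs 46 and 80 the 57 off cells began at 2700 CPM and had a median of 36872 CPM. The ranges overlapped, and the highest values of both sides were nearly the same. Stored proteases encoded outside the locus went with them. Tpsb2, the tryptase Mcpt6, had a median of 79694 CPM in on cells and 24002 CPM in off cells, and Cpa3 66474 and 45406 CPM. On cells were also deeper, with a median of 1415089 gene reads against 1187004, and the part of depth in this difference was not tested.

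In no cell did Mcpt4 have more reads than Cma1. The log2 of Cma1 over Mcpt4 reads (each + 1) had a median of 1.89 in mature mast cells, which is 3.70-fold, and of 8.18 in BMCPs, which is 291-fold (354-fold without BMCPs 46 and 80). Among cells with Mcpt4 on, the medians were 1.83 (3.56-fold) in 90 mature mast cells and 2.49 (5.60-fold) in 34 BMCPs. The wide ratio of BMCPs as a group thus came with the 59 off cells, whose median was 1025-fold.

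Across cells the relation of Cma1 to Mcpt4 had opposite signs in the groups. The Spearman correlation of log2(CPM + 1) was −0.27 over 94 mature mast cells and 0.58 over 93 BMCPs. These are descriptions over cells that share a library preparation and a read total, in which a rise of 1 abundant gene lowers the share of the others. Because BMCPs fell into a high and a low band, the correlation was also taken within each. It was 0.46 over the 34 cells with Mcpt4 on and 0.37 without the 2 cells farthest from the median of Cma1. Over the 59 off cells it was 0.11. In the 90 mature mast cells with Mcpt4 on it was −0.19.

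**Figure D2:**
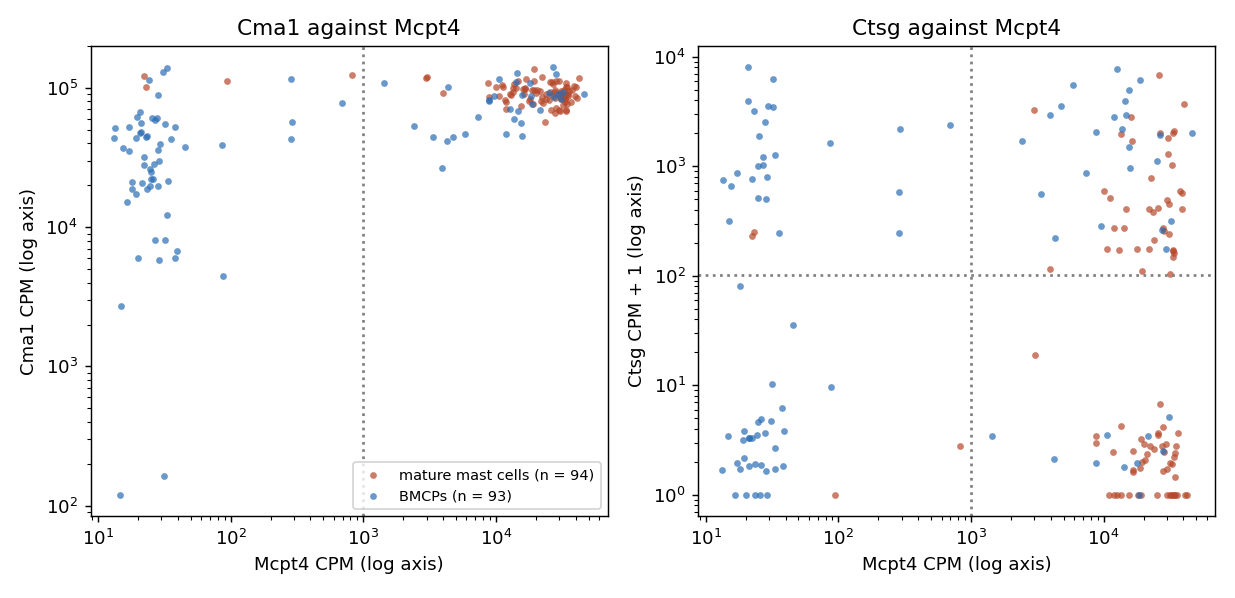
Cma1 CPM (left) and Ctsg CPM + 1 (right) against Mcpt4 CPM on logarithmic axes, with 1 point per cell; dotted lines mark the thresholds of 1000 CPM for Mcpt4 and 100 CPM for Ctsg. Mature mast cells gather at the upper right for Cma1, while BMCPs split at Mcpt4 into 34 on and 59 off cells, and Ctsg is high or low on both sides.

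Ctsg was on in some cells of both groups and off in the rest. Mature mast cells had a lowest value of 0, a median of 2.92 and a highest of 6870 CPM. BMCPs had a lowest of 0, a median of 247 and a highest of 8015 CPM. At 100 CPM, 43 of 94 mature mast cells (45.7%, 35.4% to 56.3%) and 50 of 93 BMCPs (53.8%, 43.1% to 64.2%) were on, and the intervals overlapped. Thinning to 100000 reads gave 42 and 50 cells. The cells that were off had at most 17.9 CPM among mature mast cells and 79.4 CPM among BMCPs, with medians of 0.973 and 1.68 CPM. The groups differed more in level among cells that were on, whose median was 407.0 CPM for mature mast cells against 1575 CPM for BMCPs. At 1000 CPM, 12 mature mast cells (12.8%) and 30 BMCPs (32.3%) were on. A single mature mast cell, number 29, held 21.5% of that group's Ctsg reads.

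Ctsg was not accompanied by the neutrophil genes it is known with. Of 10 granulocyte genes listed, 9 were in the table and 3 had any read, with 5 reads in all over mature mast cells and 2 over BMCPs. Ctsg itself had 49192 and 145570 reads. Elane (neutrophil elastase), Prtn3 (proteinase 3), Mpo (myeloperoxidase), S100a8, Ngp and Ltf had 0 reads in every kept cell.

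Mcpt4 and Ctsg were on together in 24 BMCPs, Mcpt4 alone in 10, Ctsg alone in 26 and neither in 33. Ctsg was thus on in 70.6% (52.5% to 84.9%) of BMCPs with Mcpt4 on and in 44.1% (31.2% to 57.6%) of those with it off. The intervals, which cover counting error only, overlapped, but such overlap does not measure the difference between the shares. In mature mast cells both were on in 41 cells, Mcpt4 alone in 49, Ctsg alone in 2 and neither in 2. There, Ctsg was on in 45.6% of the 90 cells with Mcpt4 on and in 50.0% of the 4 with it off. The Spearman correlation of the pair was 0.28 over BMCPs and −0.03 over mature mast cells. Within BMCPs with Mcpt4 on it was −0.12, and within those with it off 0.25. Cma1 and Ctsg correlated at 0.10 over BMCPs and 0.08 over mature mast cells. Among the 34 BMCPs with Mcpt4 on, that correlation was −0.39, and −0.46 without the 2 cells farthest from the median of Cma1.

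Mcpt8 and Gzmb, the protease genes near Ctsg that mark basophils and cytotoxic granules, were on in a smaller share of the BMCPs with Mcpt4 on than of those with it off. Mcpt8 was on, at 100 CPM, in 5 of 34 BMCPs with Mcpt4 on (14.7%, 4.95% to 31.1%) and in 34 of 59 with it off (57.6%, 44.1% to 70.4%). Gzmb was on in 10 of 34 (29.4%, 15.1% to 47.5%) and 50 of 59 (84.7%, 73% to 92.8%). Without BMCPs 46 and 80 the shares of off cells were 34 of 57 (59.6%) for Mcpt8 and 50 of 57 (87.7%) for Gzmb. Against Ctsg the split was smaller. Gzmb was on in 66% of the 50 BMCPs with Ctsg on and 62.8% of the 43 with it off, and Mcpt8 in 38% and 46.5%. The most frequent combinations of these 4 genes in BMCPs were Mcpt8 with Gzmb (19 cells), all but Mcpt4 (15 cells) and Mcpt4 with Ctsg (14 cells). Median Cma1 in those 3 sets was 21000, 29917 and 87781 CPM. In mature mast cells, Mcpt4 alone (46 cells) and Mcpt4 with Ctsg (38 cells) made up most of the 94, with median Cma1 of 90701 and 90717 CPM. Gzmb was on in 0 of 94 mature mast cells, which allows a share of up to 3.19% (3 of 94 cells).

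**Figure D3:**
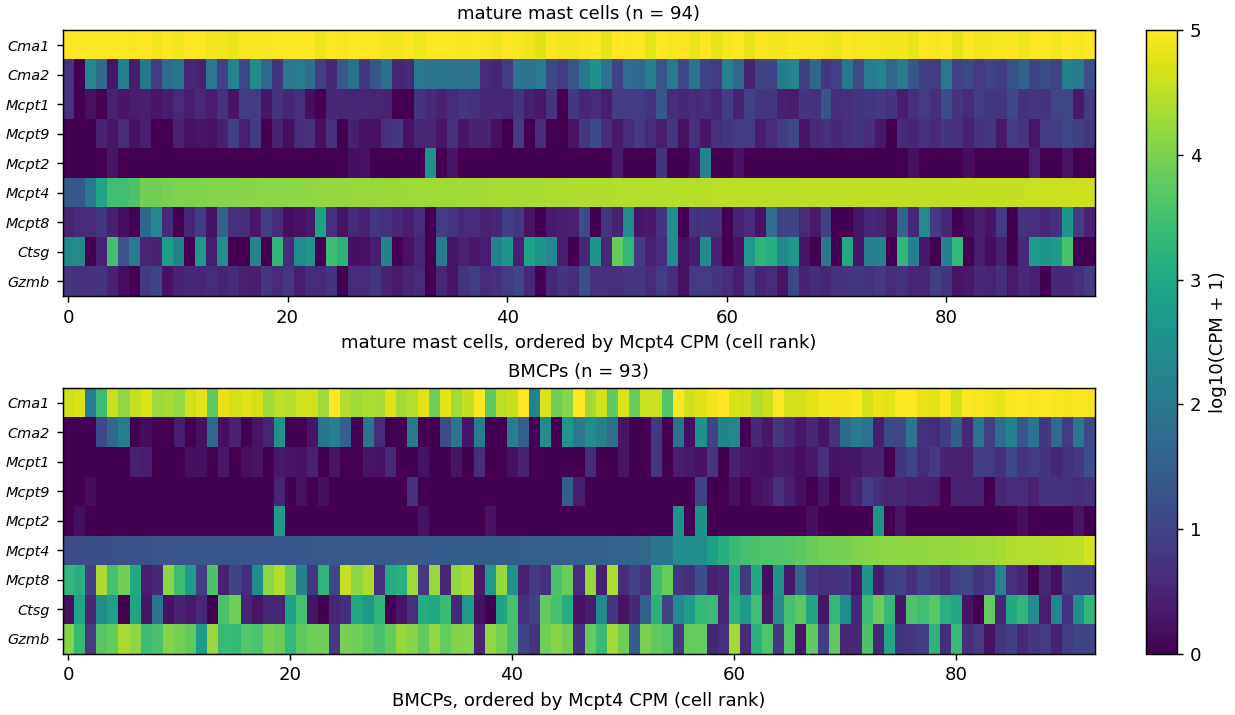
Rows are 9 protease genes in order along the chromosome, columns are cells ordered by Mcpt4, and colour is log10(CPM + 1), for 94 mature mast cells above and 93 BMCPs below. Mcpt8 and Gzmb are mostly bright on the left of the BMCP panel where Mcpt4 is low, and Ctsg is patchy along both panels.

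Levels differed by orders of magnitude between neighbours along the locus. Cma2, whose start lies 6.30 kb from that of Cma1, had 54.4 and 48 CPM, and per kb Cma1 was 1731-fold above it in mature mast cells. Mcpt8 lies 141 kb from Cma1, between Mcpt4 and Ctsg, and stood at 30.2 CPM for mature mast cells against 3294 CPM for BMCPs (log2 ratio −6.72). Gzmb, 318 kb away, stood at 3.39 and 4714 CPM (log2 ratio −10.07). Between Ctsg and Gzmb, Gzmd had no read in either group, and Gzme, Gzmg, Gzmn, Gzmf and Gzmc were at 0.636 CPM or less. Of the 10 neighbours listed, 9 were in the table and 3 passed the minimum of 5 CPM. None of the 3 was at least 2-fold higher in mature mast cells, beside 9.9% of all genes tested, and 2 were in BMCPs, beside 19.2%.

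**Figure D4:**
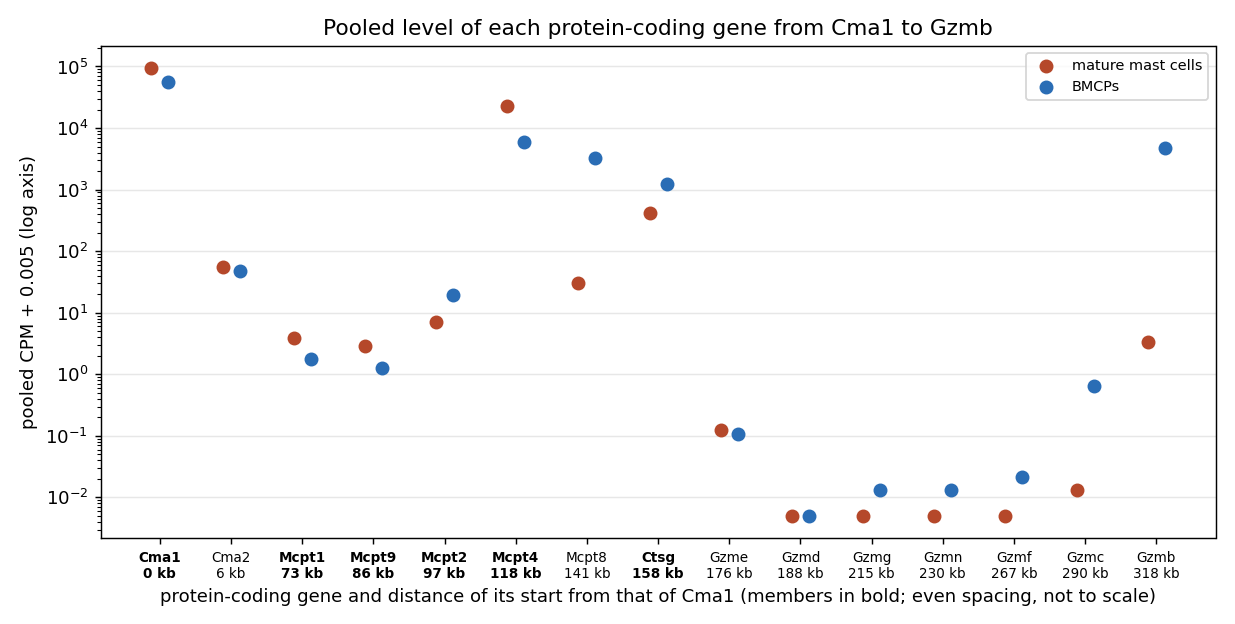
Pooled CPM (plus 0.005, logarithmic axis) of each protein-coding gene from Cma1 to Gzmb, in chromosome order with even spacing, for mature mast cells and BMCPs. Cma1 (93353 CPM) and Mcpt4 (23090 CPM) are the highest points of mature mast cells, Mcpt8, Ctsg and Gzmb are higher in BMCPs, and the genes from Gzme to Gzmc are under 1 CPM in both.

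Mcpt2 was a gene of very few cells. It passed 100 CPM in mature mast cells 24 (163.2 CPM) and 77 (335.6 CPM), and in BMCPs 72, 29, 83 and 28 (347.1, 353.9, 380.2 and 478.8 CPM). Every other cell was under 5 CPM. Mature mast cell 77 alone held 667 of the 848 Mcpt2 reads of its group, so the pooled log2 ratio of −1.32 rests on 6 cells; without the top cell of each group it was −2.42. It was −2.47 and −0.62 in the first and the second of the 2 runs of columns described at the end, so the 2-fold call was lost in the second. The 6 cells differed widely in the other members. Cma1 was on in all 6, Mcpt4 ranged from 22.2 to 28594 CPM, Ctsg from 0 to 7673 CPM and Mcpt8 reached 26899 CPM in BMCP 28.

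Mcpt1 and Mcpt9 gave a few reads per cell. No cell reached 100 CPM of either, which allows a share on of up to 3.19% of mature mast cells (3 of 94) and 3.23% of BMCPs (3 of 93). Mcpt1 had a lowest of 0, a median of 3.20 and a highest of 22.3 CPM in mature mast cells, and 0, 0.830 and 14.4 CPM in BMCPs. Mcpt9 had 0, 2.60 and 12.5 CPM in mature mast cells, and 0, 0 and 30.2 CPM in BMCPs. At least 1 read of Mcpt1 was seen in 88 of 94 mature mast cells and 59 of 93 BMCPs, but in 18 and 13 after thinning to 100000 reads. For Mcpt9 the counts were 82 and 36, and 19 and 11 after thinning.

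Reads of both genes went with Mcpt4. The 34 BMCPs with Mcpt4 on held 162 Mcpt1 reads (3.45 CPM), and the 59 with it off held 50 (0.689 CPM). For Mcpt9 the counts were 95 (2.02 CPM) and 56 (0.772 CPM). Of those 56, 29 were in BMCP 11 and 13 in BMCP 29, and 8 of the 59 off cells had a Mcpt9 read. Per 100000 Mcpt4 reads, cells with Mcpt4 on had 16.7 Mcpt1 reads among mature mast cells and 23.3 among BMCPs, and 12.5 and 13.6 Mcpt9 reads. The proportion did not hold in the 59 BMCPs with Mcpt4 off, which had 3668 Mcpt4 reads. There it was 1363 Mcpt1 and 1527 Mcpt9 reads per 100000, and most of those Mcpt9 reads were in BMCPs 11 and 29. The Spearman correlation of Mcpt1 with Mcpt4 was 0.56 over mature mast cells and 0.64 over BMCPs, and that of Mcpt9 with Mcpt4 0.49 and 0.64. Within the 34 BMCPs with Mcpt4 on the values were 0.75 and 0.60, and within the 59 with it off 0.17 and 0.06.

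**Figure D5:**
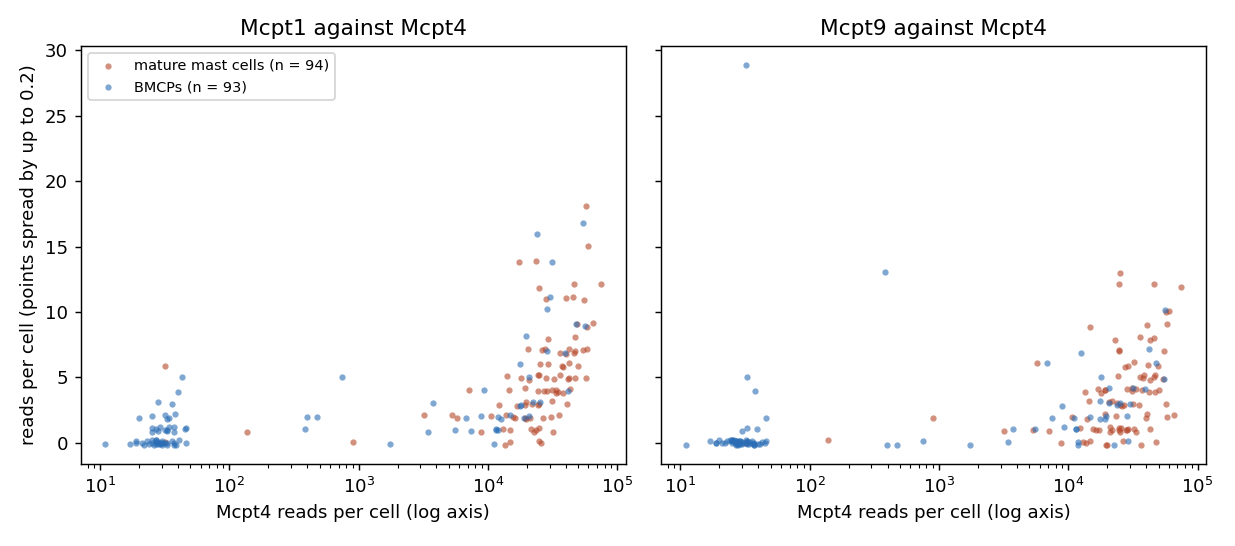
Reads of Mcpt1 (left) and Mcpt9 (right) per cell against Mcpt4 reads on a logarithmic axis, with 1 point per cell and small vertical spread. Most cells with few Mcpt4 reads have 0 to 5 reads of either gene, cells with many Mcpt4 reads have up to 18, and BMCP 11 stands apart with 29 Mcpt9 reads.

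The transcripts of these genes resemble each other, which limits how far 50-base reads separate them. Over the 976 columns aligned without a gap, the Mcpt1 transcript was 85.7% identical to that of Mcpt4. The Mcpt9 transcript was 84.9% identical to it over 812 such columns, which leave out most of its 2000 bases. Of the 965 windows of 50 bases in Mcpt1, 86 (8.91%) lay within 2 mismatches of a window of Mcpt4 and none was identical. Of 1951 windows in Mcpt9, 116 lay within 2 mismatches of Mcpt4 and 7 were identical, and 367 (18.8%) were identical to Cma2. Mcpt4 is the more abundant by far, 5388-fold per kb over Mcpt1 and 14356-fold over Mcpt9 in mature mast cells. The low values of Mcpt1 and Mcpt9 are therefore uncertain, and how many of their reads came from Mcpt4 or Cma2 was not tested. Mcpt9 and Cma2 had a Spearman correlation of 0.35 over mature mast cells and 0.40 over BMCPs. In BMCP 11, which had 30.2 CPM of Mcpt9, Cma2 stood at 380.0 CPM, the highest of any BMCP, and Mcpt4 at 33.3 CPM.

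Cma1 and Ctsg were clear of this problem among the protein-coding protease genes of the locus. None of the 1041 windows of Cma1 or the 953 of Ctsg was within 2 mismatches of another of these genes. Pseudogenes of the locus and genes elsewhere were not compared. Mcpt4 shared 58 of its 1059 windows (5.48%) exactly with Cma2, and 196 (18.5%) lay within 2 mismatches of it. Cma2 was far less abundant than Mcpt4 in both pooled groups. Pooled over the 59 BMCPs with Mcpt4 off, Cma2 stood at 53.7 CPM and Mcpt4 at 50.5 CPM. Their medians over those cells were 0.949 and 25.6 CPM. How many of those Mcpt4 reads came from Cma2 was not tested. Cma1 and Mcpt4 transcripts were 71.4% identical over 954 columns aligned without a gap.

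The genes most like Mcpt4 over BMCPs included the tryptase Tpsab1, and those most like Cma1 included the tryptase Tpsb2 and Cpa3. By Spearman correlation over 93 cells, among 1769 genes, Mcpt4 was nearest to Ecm1, an extracellular matrix protein (0.67), Tpsab1, the tryptase Mcpt7 (0.64), Tph1, which starts serotonin synthesis (0.61), Mrgprb1, a Mas-related receptor (0.61), and Pla2g7 (0.61). Its lowest were Itm2b (−0.63), Gzmb (−0.56) and Scin (−0.52). Cma1 was nearest to Cpa3 (0.73), Tpsb2 (0.71), Slc29a1 (0.70), Tph1 (0.69) and Gpr141b (0.69). Its lowest were Gzmb (−0.68), Mcpt8 (−0.63) and Ptprcap (−0.62). With the 50 CPM minimum dropped and genes required in 10% of cells in place of 50%, 5 of 5 nearest genes were shared with these lists for both members. Without BMCPs 46 and 80, 5 of 5 were shared for Mcpt4 and 4 of 5 for Cma1.

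Over the 94 mature mast cells the nearest correlations were weaker. Mcpt4 was nearest to Bst2 (0.38), Capg (0.36), Dstn (0.33), Nop10 (0.31) and Gfpt1 (0.30), and its low correlations included Itpripl1 (−0.35) and Mob3a (−0.34). Cma1 was nearest to Gltp (0.41) and lowest against Cdk9 (−0.39), Csnk2b (−0.38) and Krt4 (−0.36). With both filters loosened in the same way, 2 of 5 nearest genes were shared for Mcpt4 and 1 of 5 for Cma1. With the share of cells alone loosened 4 and 5 of 5 were shared, and with the CPM minimum alone dropped 3 and 5 of 5. For Ctsg, ranked by a rule added after the data were seen, the highest correlation was 0.36 over BMCPs (Ndrg3) and 0.38 over mature mast cells (Ecm1).

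Genes of protease storage had smaller ratios than Mcpt4. Of 8 proteases stored in mast cell granules or lysosomes, 7 passed the minimum of 5 CPM, 1 was at least 2-fold higher in mature mast cells (Tpsab1, log2 ratio 1.38) and 0 in BMCPs, beside 9.9% and 19.2% of all genes tested. The most abundant, Tpsb2, was at 0.73 and the median of the 7 was 0.60, beside −0.25 for all genes tested. Of 8 proteoglycan and heparin synthesis genes, 7 passed and 1 was higher in mature mast cells (Ext1, which extends heparan chains, 1.04). Srgn, the serglycin core protein on which chymases are stored, was at −0.17, also the median of the 7. Under the spike-in scaling 6 of the 7 proteases and 3 of the 7 proteoglycan genes were at least 2-fold higher in mature mast cells, beside 30.8% of all genes tested.

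Ctsc encodes the enzyme that removes the activation dipeptide of granule proteases. Its level was lower in mature mast cells, at 215 against 554 CPM (log2 ratio −1.36). Of the 4 activation and inhibitor genes that passed the minimum, 0 were at least 2-fold higher in mature mast cells and 1 (Ctsc) in BMCPs. The shares of all genes tested were 9.9% and 19.2%. The most abundant of the 4, Serpinb1a, an inhibitor of chymotrypsin-like proteases, stood at 5450 and 4896 CPM. Of 15 transcription factor and TGF-β route genes, 11 passed, with 0 higher in mature mast cells and 1 in BMCPs (Runx1, −2.57), beside 9.9% and 19.2% of all genes tested. Gata2, the most abundant of them, was at −0.42, and the median of the 11 was −0.25. Under the spike-in scaling 2 of the 4 activation and inhibitor genes and 4 of the 11 factors and route genes were at least 2-fold higher in mature mast cells, beside the same 30.8% of all genes, and Ctsc did not reach 2-fold.

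The deposited table listed the cells in 2 runs of columns, and each contained about equal numbers of both groups. The labels do not say what sets them apart, and the analysis of each was added after the data were seen. In the first run (mature mast cells 1 to 47, BMCPs 1 to 48) the log2 ratios were 0.74 for Cma1, 2.25 for Mcpt4 and −1.05 for Ctsg. In the second they were 0.70, 1.73 and −2.12. Mcpt4 was on at 1000 CPM in 34% and 39.1% of BMCPs. Ctsg was on in 53.2% of mature mast cells in the first run and 38.3% in the second, and in 51.1% and 56.5% of BMCPs. The share of mature mast cells with Ctsg on was thus above that of BMCPs in the first run and below it in the second.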

How the data were processed

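RNA of single peritoneal cells was reverse transcribed from its poly(A) tails, amplified by PCR with ERCC spike-in RNA and sequenced as 50 bp single-end reads in 1 lane, per the labels' protocols. The protocol names no molecular identifiers, so PCR copies were counted as separate reads. The authors deposited raw read counts per gene for 94 mature mast cells and 95 BMCPs, made with GSNAP, HTSeq 0.5.3p3 and the mm10 build per the submitters' processing notes. The annotation release, the use of strand and the treatment of reads with several matches are not given in the sources used here. Of 46078 gene rows, 45143 matched a symbol. Reads on no gene (12.5% in mature mast cells, 16.2% in BMCPs), on several genes (2.97%, 3.24%) or not aligned (13.1%, 14.9%) and 92 ERCC rows stayed out of the totals.

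CPM were computed over gene rows in cells with at least 100000 gene reads. Pooled CPM sum reads over the cells of a group (118831096 and 119524686 reads in all). Counts over a list use genes that reach 5 CPM in 1 or both groups, and call a log2 ratio of CPM + 1 at or beyond 1 or −1. On means at least 100 CPM (1000 for Cma1 and Mcpt4). Genes most like a member are the 5 highest and 3 lowest Spearman correlations among genes with at least 50 CPM and a read in at least 50% of cells. A gene this rule names is not reported here. Genes named from lists are those past 2-fold, at most 4, and the most abundant. The members and lists were chosen with earlier results of these data known. Coordinates are from GENCODE M21 (GRCm38). Thinning was checked on simulated counts. Python 3.11.15, numpy 2.4.6, pandas 2.3.3, scipy 1.17.1, Biopython 1.88, R 4.3.3 and edgeR 4.0.16 (TMM factors alone) were used. Alternatives were other scalings, thresholds, pseudocounts, read minimums, cell subsets and thinning.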

Additional observations from a re-analysis of the deposited data

How the results depend on the processing

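Every alternative kept the sign of the log2 ratios of Cma1, Mcpt4, Ctsg, Mcpt1 and Mcpt9, and Mcpt2 was at 0 with medians over cells. For Cma1, Mcpt4 and Ctsg in that order, the log2 ratios were 0.97, 2.23 and −1.31 with TMM, 1.64, 2.89 and −0.64 with ERCC scaling, and 1.44, 2.68 and −0.79 with ERCC scaling without BMCP 55, which held 13.7% of BMCP spike-in reads. Totals without the 6 members gave 0.81, 2.06 and −1.47, means over cells 0.78, 2.03 and −1.41, and medians over cells 0.96, 9.53 and −5.98. Column run 1 gave 0.74, 2.25 and −1.05, run 2 gave 0.70, 1.73 and −2.12, and leaving out BMCPs 46 and 80 gave 0.69, 1.94 and −1.59. Without the top cell of each group they were 0.75, 2.06 and −1.79. With at least 500000 reads Cma1 was at 0.72 and Mcpt4 at 2.00. The cause was not tested.

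The difference in locus share was 5.56 points as a mean over cells, 5.65 and 5.02 in runs 1 and 2, and 5.17 without BMCPs 46 and 80. At 10 CPM, Mcpt4 was on in 100% of cells of both groups, since no cell had fewer. At 1000 CPM, Ctsg was on in 12.8% of mature mast cells and 32.3% of BMCPs. The Mcpt4 to Ctsg correlation over mature mast cells was −0.15 in run 2 and its sign was not stable, the highest value being 0.06. The median log2 of Cma1 over Mcpt4 reads in mature mast cells was 1.77 in run 1 and 2.19 in run 2. In BMCPs it was 8.47 thinned, 8.32 at 500000 reads or more, 8.77 and 7.49 in runs 1 and 2, and 8.47 without BMCPs 46 and 80. Without the CPM minimum, 1743 genes in place of 1045 were at least 2-fold higher in mature mast cells and 2799 in place of 2030 in BMCPs. Runs, BMCP 55, BMCPs 46 and 80, other cells with B cell, macrophage or monocyte markers and filters loosened alone were alternatives chosen after seeing the data. Mcpt1 and Mcpt9 had too few reads per cell for shares of cells: the shares with a read dropped on thinning.

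No paired analysis was possible because each group is 1 pooled sample without a test, and the numbers in the labels only count cells.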
